A study of Mus musculus with 4 samples.

Results

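The features described here are the small noncoding RNAs of the count table. They are all 131 rows that the table annotates as ncRNA on the sense strand, plus the 8 rows that carry the same names on the antisense strand. Together they make up 139 of 25745 rows, which fall into 10 annotation categories. RNA types were read from the feature names. The names comprised 57 numbered snoRNAs, 23 snoRNAs named by the U, Z or snr series, 22 snmRNAs, 13 LIT-numbered and 5 SNO-numbered features, 2 RNase MRP RNAs, 2 U12 snRNAs, 3 long ncRNAs, and 1 each of vault RNA, telomerase RNA, tRNA and 4.5S RNA. The sources used here do not explain the LIT and SNO prefixes or the number suffixes that tell apart rows of one RNA.

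The study asked what the loss of NEF-sp, a testis 3′→5′ exoribonuclease, does to the RNAs of mouse testis. From adult C57Bl/6J mice at postnatal day 60, total testicular RNA gave 4 stranded libraries, 2 from Nef-sp -/- and 2 from Nef-sp +/- testis, after depletion of ribosomal RNA. Nef-sp -/- mice carry a short out-of-frame deletion made with Cas9 nickase on both alleles, and the Nef-sp +/- controls carry it on 1 allele, so no library came from testis with 2 intact alleles. All groups descend from founders of one deletion line. The labels do not say whether replicates are separate animals, so the p-values measure only the spread between these libraries.

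Small nucleolar RNAs (snoRNAs) guide the chemical modification of other RNAs. Box C/D snoRNAs direct ribose methylation and box H/ACA snoRNAs direct pseudouridylation, mostly of ribosomal RNA, while their relatives in Cajal bodies, the scaRNAs, act on spliceosomal RNAs. Most vertebrate snoRNAs are cut out of introns of host genes, and exonucleases then trim their ends. RNase MRP RNA is the catalytic RNA of a ribonucleoprotein that processes precursor ribosomal RNA, U12 snRNA recognizes the branch site of the rare class of minor introns, and vault RNA and telomerase RNA belong to their own particles.

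The RNAs that carried the reads or had the smallest p-values, and for which the reference holds a gene of that name, are printed to give a view of what was counted. Of the 34 sense rows whose name is not a plain number series, 11 matched a gene of the GENCODE M1 annotation of mm9, and RefSeq aliases gave a current symbol for 10 of the 34. The count table gives no coordinates, so a sequence stands for the annotated gene of that name and not necessarily for the copy counted. RNase_MRP_RNA lies on chr4:43505660-43505930, minus strand, opposite the gene Ccdc107, and is 271 bases long. It is shown whole because it took most reads.
RNase_MRP_RNA.2.1: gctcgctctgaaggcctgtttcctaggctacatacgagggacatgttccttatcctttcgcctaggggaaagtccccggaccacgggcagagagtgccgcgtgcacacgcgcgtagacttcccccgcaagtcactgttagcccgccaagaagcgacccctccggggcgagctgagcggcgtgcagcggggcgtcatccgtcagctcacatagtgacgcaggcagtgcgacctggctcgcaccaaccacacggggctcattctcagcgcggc
U12 snRNA lies on chr15:82980074-82980224, plus strand, and is 151 bases long. Capitals mark the stretch that pairs with the branch site. The annotation holds 6 entries of this name, and the one shown is the entry of known status.
u12_snRNA.1.2: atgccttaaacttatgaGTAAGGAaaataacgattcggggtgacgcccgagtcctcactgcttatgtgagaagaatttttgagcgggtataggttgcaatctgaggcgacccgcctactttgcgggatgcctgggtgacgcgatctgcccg

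Among the snoRNAs, U22 is shown for its small p-value, z32 for its spread between replicates, and u32 and z51 as members of the same class at low counts. U22 (Snord22) lies on chr19:8800356-8800481, plus strand, inside an exon of both annotated transcripts of the noncoding host gene Snhg1. U32 (Snord32a) lies on chr7:52382752-52382834, minus strand, within the ribosomal protein gene Rpl13a, where an exon overlaps it in 1 of 13 transcripts. Z32 (Scarna9, annotated as a scaRNA) lies on chr9:15130708-15130777, minus strand, in an intron of 5830418K08Rik. Z51 (Snord100) lies on chr10:23505556-23505629, minus strand, in an intron of Rps12. Capitals mark the C box TGATGA, searched in the first 20 bases, and the D box CTGA, searched in the last 20 bases, on the RNA strand only.
U22.1.1: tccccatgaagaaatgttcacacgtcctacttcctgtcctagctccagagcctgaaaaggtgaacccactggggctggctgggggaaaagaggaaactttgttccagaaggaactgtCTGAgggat
u32_snoRNA.1.1: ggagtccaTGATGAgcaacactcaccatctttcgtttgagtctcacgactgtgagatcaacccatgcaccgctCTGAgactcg
z32_snoRNA.1.1: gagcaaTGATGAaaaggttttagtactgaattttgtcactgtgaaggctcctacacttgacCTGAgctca
z51_snoRNA.1.1: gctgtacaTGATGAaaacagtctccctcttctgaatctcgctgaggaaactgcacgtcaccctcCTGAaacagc
Both boxes stood in the window in u32, z32 and z51, whereas U22 held only the D box as spelled. Of the Snord genes of known status in the annotation, with 1 chromosome left out, 38 of 64 (59.4%) held both boxes. Of the Snora genes, the H/ACA class, chosen in the same way, 0 of 33 did.

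The libraries held 20659865 and 34442517 counted reads in Nef-sp +/-, against 21104999 and 20685289 in Nef-sp -/- testis. Nef-sp exon sense reads, listed as 2610020H08Rik, stood at 1842 and 1701 normalized counts in Nef-sp +/-, against 408 and 491 in Nef-sp -/- libraries, a log2 fold change of -1.98 (SE 0.09, adjusted p = 3.7e-05, edgeR quasi-likelihood test with Benjamini-Hochberg adjustment). Markers of the tissue were present in every library, given here as CPM, counts scaled to the library total. Haploid spermatid genes stood at 14250 and 17280 CPM in replicates 1 and 2 of Nef-sp +/-, against 17460 and 16900 in Nef-sp -/- testis. Spermatocyte genes stood at 3730 to 3853 CPM. The 5 Leydig cell markers summed to 746 and 744 CPM in Nef-sp +/-, against 693 and 581 in Nef-sp -/- testis, and 0 of them were called. Sertoli cell markers (31.99 and 33.74, against 29.4 and 30.8 CPM) and peritubular myoid markers (58.13 and 55.57, against 49.4 and 53.7 CPM) were also lower in both Nef-sp -/- libraries, and blood markers (9.78 and 8.77, against 9.90 and 10.4 CPM) were higher. The part of these markers in the results was not tested. In bulk RNA, fewer cells of a type and less RNA per cell cannot be told apart.

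NcRNA sense rows took 0.338% and 0.320% of all counted reads in Nef-sp +/-, against 0.321% and 0.327% in Nef-sp -/- libraries. The means were 0.329% ± 0.0128 and 0.324% ± 0.00425 (SD, n = 2 each, exact two-sided permutation p = 1.0), and the smallest p this design allows is 0.333. The ranges overlapped. Reads were concentrated on a few RNAs: RNase_MRP_RNA.2.1 alone took 46.9% of ncRNA sense reads, the first 5 features 75.6% and the first 10 features 86.3%. These are shares of reads and were not corrected for the length of each RNA. At the other end, 49 of the 131 rows had fewer than 20 reads over all 4 libraries, and the median row had 48. A count of 0 was seen in at least 1 library for 20 rows, but 0 rows were at 0 in both libraries of a genotype. In a library, a count of 0 allows up to 3 reads, which is 0.0871 to 0.145 CPM.

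By type, RNase MRP RNA made up 53.5% ± 0.743 of the ncRNA sense reads in Nef-sp +/- and 53.7% ± 0.262 in Nef-sp -/- libraries (SD, n = 2 each, exact permutation p = 1.0). The snmRNAs, a series of small non-messenger RNAs, took 25.4% ± 0.597 and 26.2% ± 0.335, and the numbered snoRNAs took 11.8% ± 0.300 and 11.5% ± 0.175. U12 snRNA stood at 2.78% ± 0.175 and 2.40% ± 0.192, the LIT-numbered features at 2.38% ± 0.0162 and 2.48% ± 0.0590, and the named snoRNAs at 2.15% ± 0.0302 and 1.94% ± 0.0690. Numbered and named snoRNAs and U12 were below both Nef-sp +/- libraries in both Nef-sp -/- libraries. For the numbered snoRNAs, the nearest libraries were replicate 2 of Nef-sp +/- at 11.62% and replicate 2 of Nef-sp -/- at 11.6%. The snmRNAs and LIT-numbered features were above both Nef-sp +/- libraries. Each of these differences had an exact permutation p of 0.333, the smallest possible, and an adjusted p of 0.4 over the 12 types, so none could pass a threshold of 0.05.

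**Figure D1:**
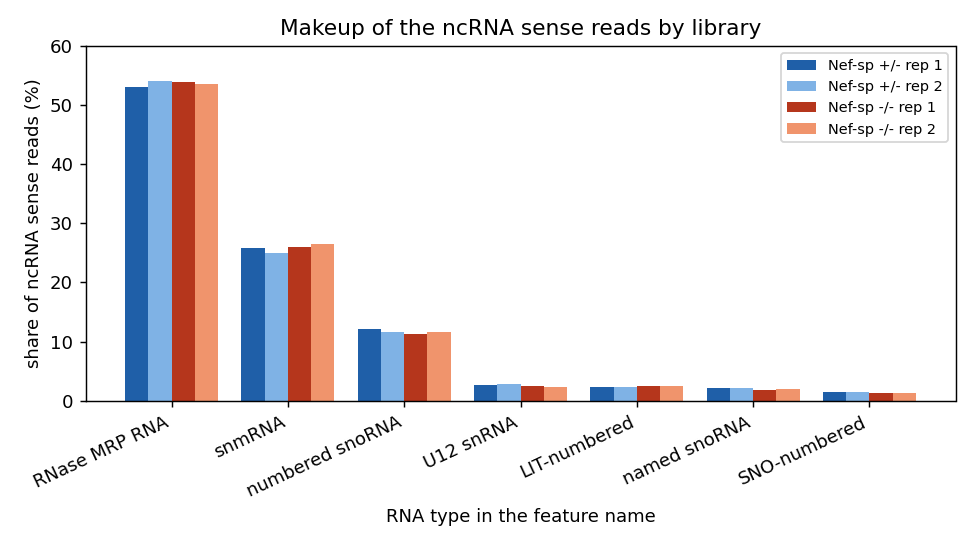
Share of ncRNA sense reads (percent, vertical axis) taken by each of the 7 RNA types with the most reads (horizontal axis), with 1 bar for each library. RNase MRP RNA stands near 53% to 54% in all 4 libraries. U12 snRNA and the numbered, named and SNO-numbered snoRNAs are slightly lower in both Nef-sp -/- libraries, the numbered ones by the narrowest margin for their level.

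For the comparison of genotypes, features with enough reads were tested in a single edgeR fit over all categories. Of the 131 sense rows, 68 passed this filter and 63 did not, and 1 of the 68, snoRNA.88.1, passed only through its Nef-sp +/- libraries. None of the 68 had an adjusted p below 0.05, against 1 of 17783 features overall (0.00562%), which was Nef-sp itself. At an unadjusted p below 0.05, 7 of the 68 (10.3%) were counted, 6 lower and 1 higher in Nef-sp -/- testis, against 628 of all features (3.53%). The 6 were snoRNA.47.1, snoRNA.80.1, U22, SNO1475.1 and both U12 rows, and the 1 was LIT1678.12. The genotypes did not overlap in 25 of the 68 (36.8%), against 32.1% of all features. Lower in Nef-sp -/- testis were 20 of the 68 (29.4%, against 17.2% of all features), snoRNA.88.1 among them. Higher were 5 of the 68, against 14.9% of all features. The 5, named after their values were seen, were LIT1314.1, LIT1629.1, LIT1678.12, snmRNA.1.1 and snmRNA.6.1. The adjusted p of every tested ncRNA feature was 0.997 to 0.998 by the edgeR quasi-likelihood test with Benjamini-Hochberg adjustment, and DESeq2 also called 0.

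Among the 68, 47 log2 fold changes were below 0 and 21 above, with a median of -0.07, whereas 49.1% of all features were below 0 with a median of 0.003. The 47 include snoRNA.88.1. Where every library held at least 10 counts, 40 of 60 were below 0. With DESeq2 size factors 46 of 68 were below 0, and with scaling to library size 51 were. When the ncRNA rows were scaled on their own reads only, which centres them by construction, 33 of 68 were below 0 and the median was 0.005. Without replicate 1 of Nef-sp +/-, 41 of 68 were below 0, and without replicate 2 of Nef-sp +/-, 51 were. Over all 131 rows, tested or not, the mean normalized count was lower in Nef-sp -/- testis for 79 and higher for 52. The precision followed the read depth. The 31 features with a mean of at least 100 normalized counts had 95% intervals that reached a median of 0.185 to either side on the log2 scale, and those of the 37 below 100 reached 0.701. For 53 of the 68, the whole interval lay within 1 log2 unit of 0, and for 28 it lay within 0.5. For the others, a difference of that size lay inside the interval.

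**Figure D2:**
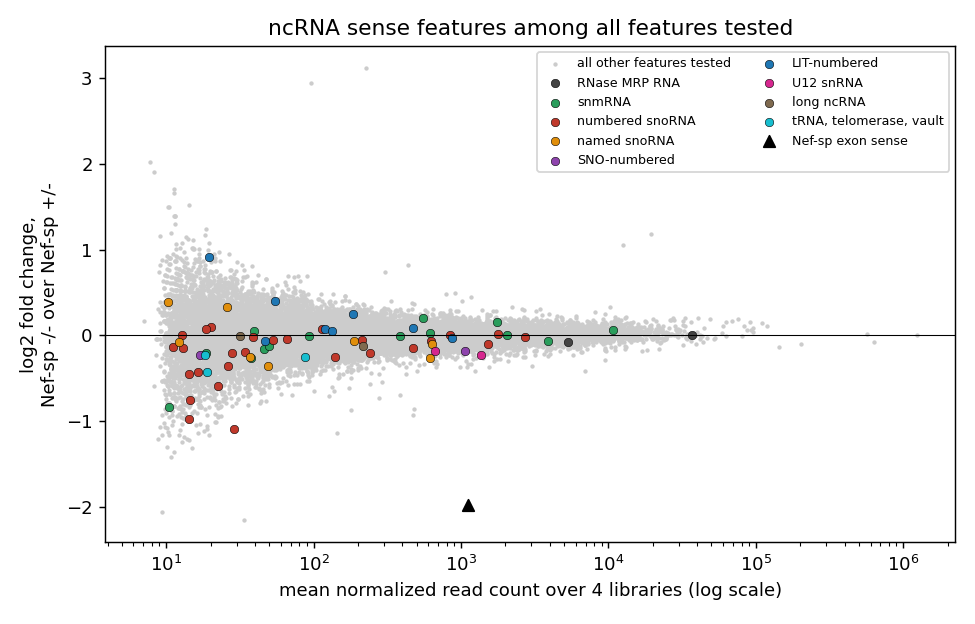
Log2 ratio of Nef-sp -/- to Nef-sp +/- (vertical axis) against the mean normalized read count over the 4 libraries (horizontal log axis), with the 68 ncRNA sense features coloured by type, all other tested features in grey and Nef-sp exon sense reads as a triangle. The ncRNA features with at least 100 counts lie between -0.26 and 0.25, and the wider values belong to features with few reads.

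RNase MRP RNA was the most abundant type by reads. RNase_MRP_RNA.2.1 had 37100 and 36690 normalized counts in Nef-sp +/-, against 37010 and 37280 in Nef-sp -/- libraries, a log2 fold change of 0.01 (95% interval -0.13 to 0.15). RNase_MRP_RNA.1.1 had 5496 and 5460 in Nef-sp +/-, against 5302 and 5098 in Nef-sp -/- libraries, with a log2 fold change of -0.08 (interval -0.21 to 0.06). The first overlapped between genotypes and the second did not, and neither interval left out 0. For RNase P and RNase MRP, 12 symbols were searched, among them Rpph1 and Rmrp, which name the RNAs of these enzymes. Of the 12, 9 were listed and tested, all of them protein genes. Log2 fold changes were below 0 for 6 and above for 3, and 0 were called. They ranged from -0.27 for Pop5 to 0.63 for Pop1, 2 subunits shared by both enzymes.

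U12 snRNA, the minor spliceosome RNA, appeared in 2 rows, and both were lower in each Nef-sp -/- library than in each Nef-sp +/- library. Row u12_snRNA.1.2 had 1419 and 1553 normalized counts in Nef-sp +/-, against 1341 and 1195 in Nef-sp -/- testis, a log2 fold change of -0.23 (SE 0.08, unadjusted p = 0.016, adjusted p = 0.997, edgeR). Row u12_snRNA.1.1 had 715 and 710 in Nef-sp +/-, against 652 and 600 in Nef-sp -/- testis, with a log2 fold change of -0.19 (SE 0.08, unadjusted p = 0.037, adjusted p = 0.997, edgeR). The 2 rows name the same RNA and may share reads, so they are not independent of each other. Under 12 other fits, the value of u12_snRNA.1.2 ranged from -0.32 to -0.15 and that of u12_snRNA.1.1 from -0.25 to -0.11, with no adjusted p below 0.167. The other spliceosomal snRNAs are counted by the table as repeats. U4 stood at -0.23 (unadjusted p = 0.0070), U5 at -0.29 (unadjusted p = 0.0016), U1 at -0.13, U2 at -0.10 and U6 at 0.16, and none passed the adjusted test in edgeR. Genes for snRNP proteins were listed in 26 of 28 cases, of which 16 lay below 0 and 10 above. Lsm4 had the lowest value at -0.19 (unadjusted p = 0.025, adjusted p = 0.997, edgeR), and Lsm1, a subunit of the cytoplasmic Lsm ring that acts in mRNA decay, the highest at 0.23.

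**Figure D3:**
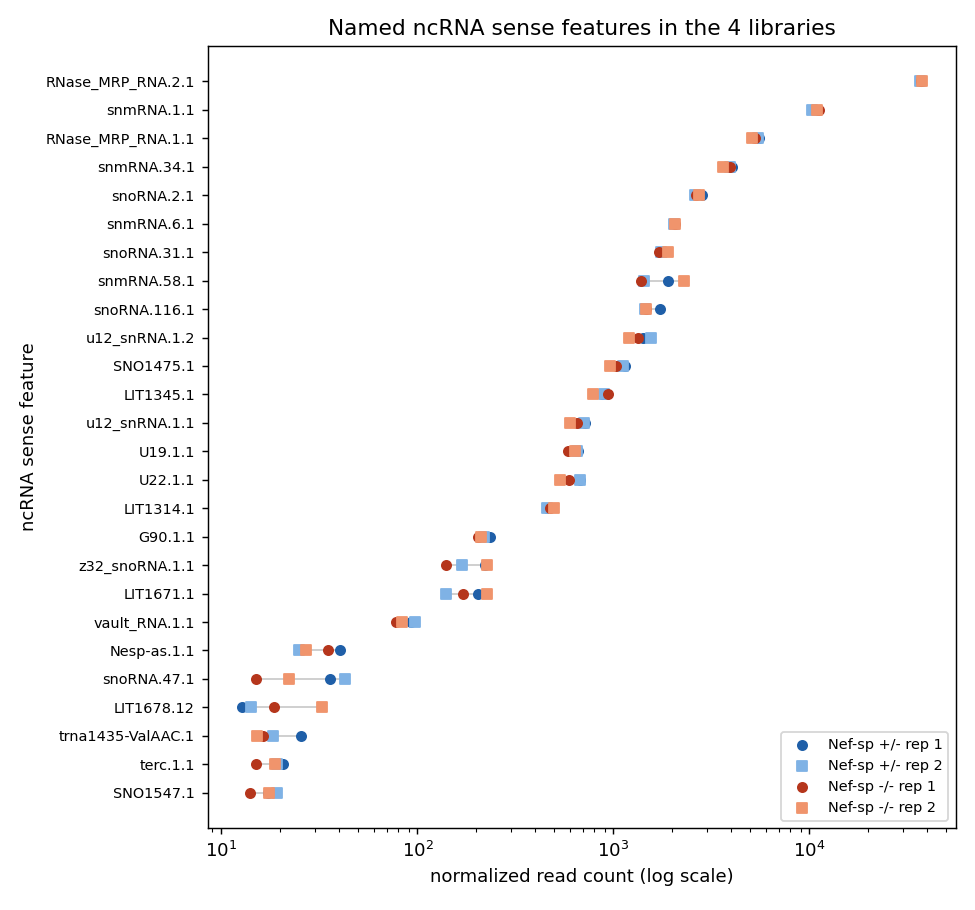
Normalized read count (horizontal log axis) of the 26 named ncRNA sense features that were tested, with 1 point for each library (circles for replicate 1, squares for replicate 2, blue for Nef-sp +/- and red for Nef-sp -/-). The points of RNase MRP RNA nearly coincide, those of snoRNA.47.1 and U22 separate by genotype, and for snmRNA.58.1 and z32_snoRNA.1.1 replicate 1 of Nef-sp +/- and replicate 2 of Nef-sp -/- are the high points.

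The snoRNAs formed the largest group. Of 85 rows (57 numbered, 23 named and 5 SNO-numbered), 37 were tested, 29 with log2 fold changes below 0 and 8 above, and the median was -0.13. None was called, and 4 had an unadjusted p below 0.05 (10.8%, against 3.53% of all features). The genotypes did not overlap in 12 of the 37, all lower in Nef-sp -/- testis (32.4%, against 17.2% of all features). Counted among the lower ones is snoRNA.88.1, which passed the filter only through its Nef-sp +/- libraries. Where every library held at least 10 counts, 23 of 30 snoRNAs were below 0, with a median of -0.10. With the ncRNA rows scaled on their own, which centres them, 22 of 37 were below 0 and the median was -0.07. Without 1 library, 25 of 37 were below 0 when replicate 1 of Nef-sp +/- or replicate 1 of Nef-sp -/- was left out, 28 without replicate 2 of Nef-sp -/- and 33 without replicate 2 of Nef-sp +/-. Over all 85 rows, 55 had a lower and 30 a higher mean in Nef-sp -/- testis.

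The snoRNA with the smallest p-value, snoRNA.47.1, had 35.7 and 42.5 normalized counts in Nef-sp +/-, against 15.1 and 22.2 in Nef-sp -/- libraries. These rest on 31 and 60 against 13 and 19 reads. Its log2 fold change was -1.08 (SE 0.29, interval -1.73 to -0.43, unadjusted p = 0.0041, adjusted p = 0.997, edgeR). Both Nef-sp -/- libraries lay below both controls, at 47.7% of the control mean, but the difference did not pass the adjusted test in this or any of 12 other fits, where it ranged from -1.39 to -0.83 with adjusted p from 0.179 to 1.0. A second low-count snoRNA, snoRNA.80.1, had 15.0 and 22.6 in Nef-sp +/-, against 12.8 and 7.02 in Nef-sp -/- libraries, a log2 fold change of -0.97 (SE 0.42, unadjusted p = 0.043, edgeR). It is named here because its unadjusted p was seen to lie below 0.05.

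U22, a box C/D snoRNA with the host gene Snhg1, had 672 and 675 normalized counts in Nef-sp +/-, against 590 and 536 in Nef-sp -/- libraries. Its control libraries nearly coincided and both Nef-sp -/- libraries were lower, at 83.6% of the control mean. The log2 fold change was -0.26 (SE 0.08, interval -0.44 to -0.08, unadjusted p = 0.0092, adjusted p = 0.997, edgeR), and it ranged from -0.33 to -0.18 under 12 other fits, with no adjusted p below 0.257. SNO1475.1 had 1139 and 1113 in Nef-sp +/-, against 1030 and 959 in Nef-sp -/- libraries, a log2 fold change of -0.18 (SE 0.07, unadjusted p = 0.030, adjusted p = 0.997, edgeR). U19, an H/ACA snoRNA, had 659 and 650 in Nef-sp +/-, against 589 and 637 in Nef-sp -/- libraries, with a log2 fold change of -0.10 (interval -0.27 to 0.08). The genotypes did not overlap in either, but the interval of U19 included 0. SNO1547.1 was at 13.9 to 19.1 normalized counts in all libraries, with a log2 fold change of -0.22 (interval -0.97 to 0.52).

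The 3 most abundant numbered snoRNAs gave values near 0. The first, snoRNA.2.1, had 2833 and 2604 normalized counts in Nef-sp +/-, against 2633 and 2744 in Nef-sp -/- libraries, a log2 fold change of -0.02 (interval -0.17 to 0.14). SnoRNA.31.1 had 1814 and 1748 against 1701 and 1900, with a value of 0.02 (interval -0.15 to 0.18). SnoRNA.116.1 had 1722 and 1441 against 1470 and 1473, with a value of -0.10 (interval -0.29 to 0.09). In all 3 the libraries of the genotypes overlapped, and the intervals leave room for differences of up to 0.29 on the log2 scale. Over all 68 tested ncRNA rows, 29 of 37 below 100 normalized counts and 18 of 31 at or above 100 had values below 0, a difference that was not tested.

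**Figure D4:**
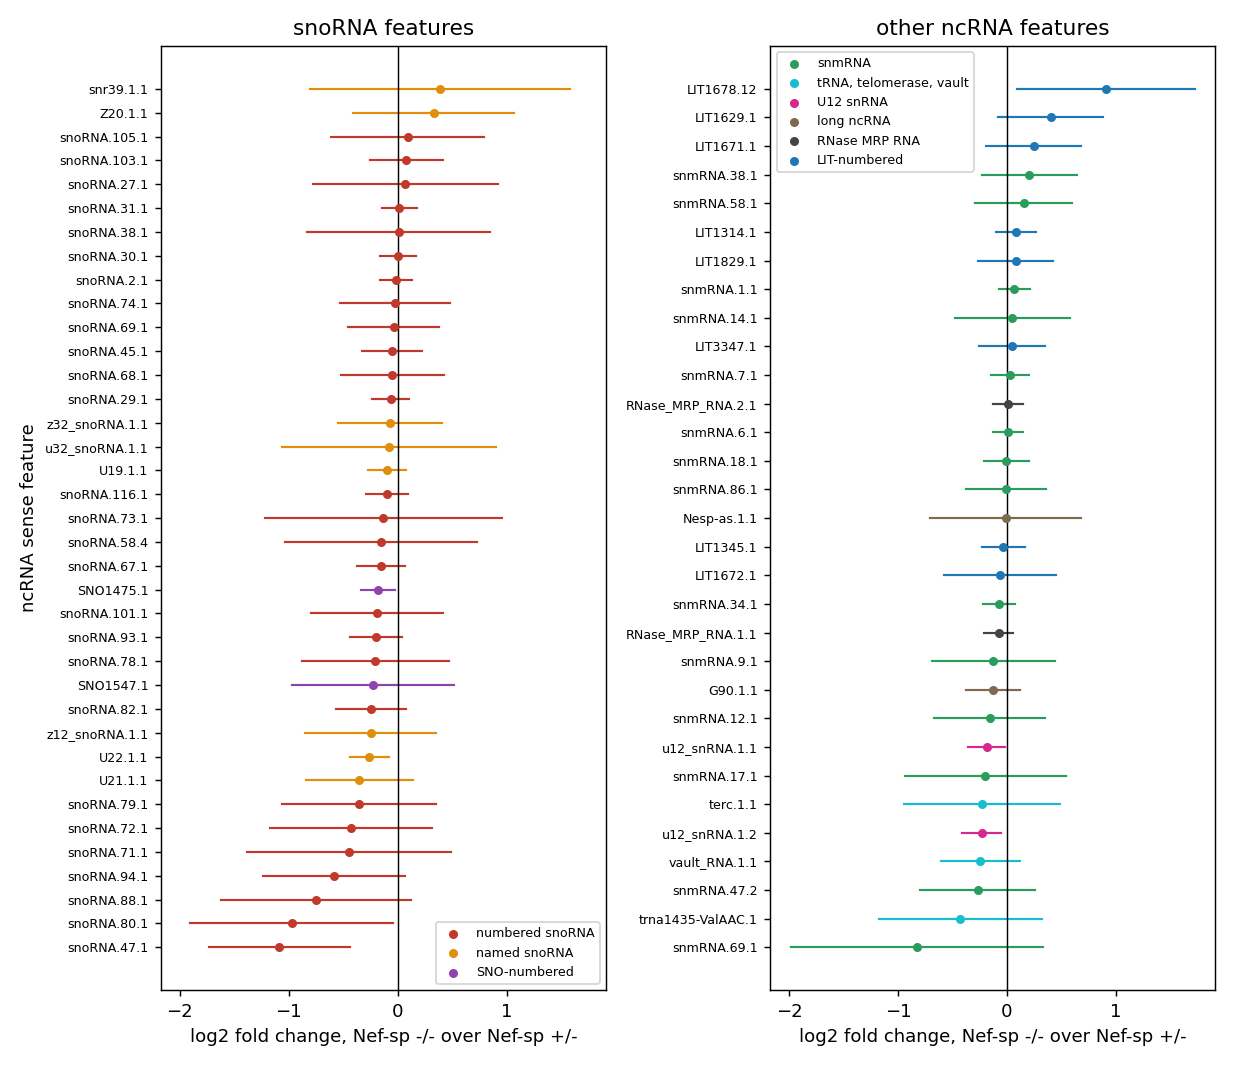
Log2 ratio of Nef-sp -/- to Nef-sp +/- with its 95% interval (horizontal axis) for each of the 68 tested ncRNA sense features (vertical axis), snoRNAs on the left and other RNAs on the right, coloured by type. Intervals are short for abundant RNAs and long for rare ones, and most snoRNA values lie left of 0 with intervals that cross it.

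Some snoRNAs could be set beside their host genes. Rpl13a, which harbours U32 and U33, had 3188 and 3282 exon sense counts in Nef-sp +/-, against 3463 and 3475 in Nef-sp -/- libraries after normalization, a log2 fold change of 0.10. U32 itself had 15.0 and 10.6 against 8.11 and 15.2 normalized counts and a log2 fold change of -0.08 (interval -1.06 to 0.90). U33 and z51 had too few reads to be tested, with 3, 4, 2 and 2 reads and 7, 8, 5 and 4 reads in the 2 Nef-sp +/- and then the 2 Nef-sp -/- libraries. For the proteins that form the C/D particle, 6 symbols were searched, with older names of some genes beside current ones, and 3 were listed. Among these were the methyltransferase gene Fbl at -0.24 and Nop56 at 0.02. A symbol that was not listed can thus be another name of a listed gene. For the H/ACA and telomerase particle, 9 symbols were searched in the same way and 5 were listed. They ranged from -0.09 for the assembly factor Shq1 to 0.15 for the pseudouridine synthase gene Dkc1. All 12 assembly factors were listed, 6 below and 6 above 0, from Znhit6 at -0.18 to the cap hypermethylase gene Tgs1 at 0.40. Over all lists of ribonucleoprotein and host genes, 69 genes were tested and 0 were called. An unadjusted p below 0.05 was seen for 1 of the 69, against 3.68% of tested gene exon sense rows. The median was -0.02, beside -0.01 for all gene exon sense rows. Of 20 symbols searched as noncoding host genes, 2 were listed and 1 was tested. The tested one, Epb4.1l4a at 0.09 (interval -0.31 to 0.48), is a protein-coding gene, so the noncoding host genes themselves were not tested.

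Other snoRNAs are counted as repeats. U3, which is needed for cleavage of precursor ribosomal RNA, stood at -0.05 and U17 at 0.04. U13 had 73.7 and 65.1 normalized counts in Nef-sp +/-, against 40.6 and 49.1 in Nef-sp -/- libraries, a log2 fold change of -0.62 (SE 0.21, unadjusted p = 0.014, adjusted p = 0.997, edgeR). U8 stood at -0.05 and U14 at 0.29, both with intervals that included 0.

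Of the 22 snmRNAs, 14 were tested, 8 below and 6 above 0, with a median of -0.01 and 0 called. An unadjusted p below 0.05 was seen for 0 of the 14, against 3.53% of all features. The most abundant, snmRNA.1.1, had 10830 and 10250 normalized counts in Nef-sp +/-, against 11210 and 10870 in Nef-sp -/- libraries, a log2 fold change of 0.07 (interval -0.07 to 0.21). SnmRNA.34.1 had 4015 and 3916 against 3938 and 3619, with a value of -0.07 (interval -0.22 to 0.08). SnmRNA.6.1 had 2040 and 2041 against 2056 and 2051, with a value of 0.01 (interval -0.13 to 0.15). The last of these was nearly level in all 4 libraries. Its lack of overlap between genotypes rests on small differences, and the sign of its log2 fold change turned under scaling to library size (-0.006).

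Some features differed more between replicates than between genotypes. SnmRNA.58.1 had 1899 and 1434 normalized counts in replicates 1 and 2 of Nef-sp +/-, and 1388 and 2303 in replicates 1 and 2 of Nef-sp -/-. SnmRNA.38.1 had 582 and 452 in Nef-sp +/-, against 447 and 735 in Nef-sp -/- replicates in the same order. Z32 had 222 and 168 in Nef-sp +/-, against 140 and 227 in Nef-sp -/- replicates. All 3 were high in replicate 1 of Nef-sp +/- and replicate 2 of Nef-sp -/- and low in the other pair of libraries. The ratio of the Nef-sp -/- replicates was 1.66 for snmRNA.58.1, 1.64 for snmRNA.38.1 and 1.62 for z32, and that of the Nef-sp +/- replicates was 1.32, 1.29 and 1.32. These were the only 3 of the 31 features with at least 100 counts whose Nef-sp -/- replicates differed by more than 0.5 on the log2 scale, while 21 of the 31 kept all 4 libraries within 1.2-fold of each other.

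The genotype values of snmRNA.58.1 and z32 turned on single libraries. SnmRNA.58.1 had a log2 fold change of 0.15 (interval -0.29 to 0.60), which became 0.36 with an adjusted p of 0.022 in edgeR without replicate 1 of Nef-sp +/-, -0.04 without replicate 2 of Nef-sp +/-, and -0.25 without replicate 2 of Nef-sp -/-. SnmRNA.38.1 stood at 0.21 (interval -0.23 to 0.65) and z32 at -0.07 (interval -0.54 to 0.41), which became 0.12 without replicate 1 of Nef-sp +/- and 0.24 without replicate 1 of Nef-sp -/-. Intron reads of the z32 host gene 5830418K08Rik had 708 and 638 normalized counts in Nef-sp +/-, against 674 and 782 in Nef-sp -/- replicates, the same order within each genotype at smaller ratios. Its exon reads had 1993 and 2108 in Nef-sp +/-, against 2080 and 2234 in Nef-sp -/- replicates, which is the opposite order within Nef-sp +/-. The 4.5S RNA repeat row had 2988 and 2154 in Nef-sp +/-, against 1815 and 2553 in Nef-sp -/- replicates, also in that order, whereas the 4.5S RNA row of the ncRNA category held 15 reads in all.

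**Figure D5:**
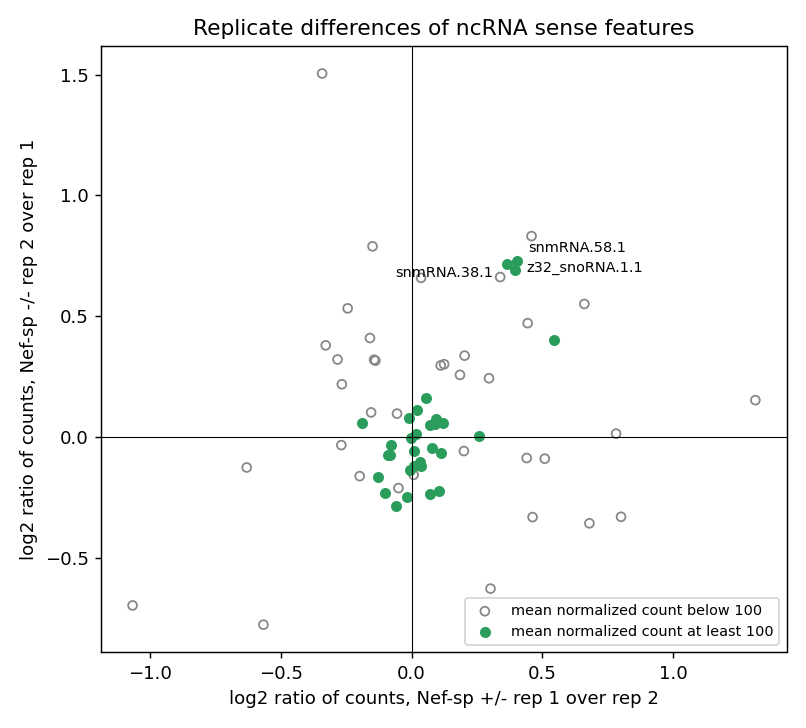
Log2 ratio of normalized counts of the Nef-sp -/- replicates (replicate 2 over 1, vertical axis) against that of the Nef-sp +/- replicates (replicate 1 over 2, horizontal axis) for the 68 tested ncRNA sense features, filled where the mean count is at least 100. SnmRNA.58.1, snmRNA.38.1 and z32_snoRNA.1.1 stand together at about 0.4 and 0.7, and LIT1671.1, also filled, stands at 0.54 and 0.40.

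Of the 13 LIT-numbered features, 8 were tested, 6 with values above 0 and 2 below, with a median of 0.08 and 0 called. LIT1678.12 had 12.7 and 14.2 normalized counts in Nef-sp +/-, against 18.5 and 32.8 in Nef-sp -/- libraries, a log2 fold change of 0.91 (SE 0.37, interval 0.09 to 1.73, unadjusted p = 0.032, adjusted p = 0.997, edgeR). Both Nef-sp -/- libraries were higher, on 11 and 20 against 16 and 28 reads, and the value ranged from 0.45 to 1.27 under 12 other fits with no adjusted p below 0.543. LIT1345.1 had 878 and 890 in Nef-sp +/-, against 939 and 790 in Nef-sp -/- libraries (log2 fold change -0.03). LIT1671.1 had 204 and 139 against 172 and 227, with a log2 fold change of 0.25 (interval -0.19 to 0.68), and its libraries overlapped.

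Of the single-member types, vault RNA had 93.2 and 96.9 normalized counts in Nef-sp +/-, against 77.6 and 83.1 in Nef-sp -/- libraries, a log2 fold change of -0.25 (interval -0.61 to 0.12). Telomerase RNA had 20.7 and 19.1 against 15.1 and 18.7, with a value of -0.22 (interval -0.94 to 0.49). The valine tRNA row had 25.3 and 18.4 against 16.2 and 15.2, with a value of -0.43 (interval -1.18 to 0.32). In each the genotypes did not overlap, but every interval included 0. Mvp, the gene of the major vault protein, had 12.7 and 14.9 normalized counts in Nef-sp +/-, against 10.4 and 7.02 in Nef-sp -/- libraries, a log2 fold change of -0.67 (interval -1.60 to 0.25), and Ssb, which encodes the La protein, stood at -0.03. The Y RNAs, partners of the Ro protein, are counted as repeats. HY3 had 566 and 582 in Nef-sp +/-, against 448 and 415 in Nef-sp -/- libraries, a log2 fold change of -0.41 (SE 0.08, unadjusted p = 0.00063, adjusted p = 0.675, edgeR), and HY1 stood at -0.38 (unadjusted p = 0.0069). For both Y RNAs, each Nef-sp -/- library lay below each Nef-sp +/- library. 7SK, counted as a repeat too, stood at -0.07, and its 4 listed protein genes were all below 0, from Hexim1 at -0.19 to Larp7 at -0.02, with 0 called. 7SL, the RNA of the signal recognition particle, stood at 0.01. Of 7 symbols searched for its proteins, 6 were listed, from -0.07 for Srp68 to 0.01 for Srp54a.

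The long noncoding RNAs among the rows were H19, Nesp-as and G90. G90 had 234 and 219 normalized counts in Nef-sp +/-, against 203 and 211 in Nef-sp -/- libraries, a log2 fold change of -0.13 (interval -0.38 to 0.12). Nesp-as, an antisense RNA of the imprinted Gnas locus, had 40.3 and 24.8 against 34.8 and 26.9 and a value of -0.01. H19, an imprinted RNA of embryonic tissue, had 0, 4, 2 and 0 reads and was not tested.

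On the opposite strand, the 8 names listed on both strands had 955 antisense and 214834 sense reads, an antisense share of 0.443% (95% Wilson interval 0.415% to 0.472%, counting error only). The share was 0.459% ± 0.0542 in Nef-sp +/- and 0.432% ± 0.0697 in Nef-sp -/- libraries (SD, n = 2 each, exact permutation p = 0.667). LIT3348.1 gave 724 of the 955 antisense reads and RNase_MRP_RNA.2.1 gave 147897 of the 214834 sense reads, so the pooled share rests mostly on these names. The antisense share differed widely between names. RNase_MRP_RNA.2.1 had 10 antisense among 147907 reads (0.00676%), snmRNA.1.1 had 0.0117%, and LIT1314.1 had 6.38%. LIT3348.1 was read almost wholly on the strand opposite its annotation, with 97.6% of 742 reads antisense (interval 96.2% to 98.5%) and between 96.4% and 98.7% in each library. SnoRNA.9.1 was antisense in 14 of 20 reads.

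Of the antisense rows, LIT3348.1 had 215 and 164 normalized counts in Nef-sp +/-, against 195 and 160 in Nef-sp -/- libraries, a log2 fold change of -0.07 (interval -0.44 to 0.29). Antisense LIT1314.1 had 31.1 and 36.1 against 31.3 and 26.9, with a value of -0.22, while its sense row had 456 and 459 against 472 and 499, with a value of 0.09 (interval -0.10 to 0.27). Antisense reads of 2 names without a sense row were also tested, LIT3345.1 at -0.14 and snmRNA.21.1 at -0.25, and both intervals included 0.

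As a neighbouring category, miRNA sense rows were tested in 27 cases, 14 below and 13 above 0, with a median of -0.02 and 0 called. The genotypes did not overlap in 37.0% of them (against 32.1% of all features), with 25.9% lower in Nef-sp -/- testis (against 17.2%). The difference between miRNA and ncRNA rows was not tested.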

How the data were processed

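Total testicular RNA was prepared with the TruSeq Stranded Total RNA kit after Ribo-Zero depletion and sequenced for 50 cycles in 4 libraries. Adapter-trimmed reads were aligned by the authors to mm9 with their own tools, only perfect matches were retained, and the deposited values are raw counts per feature, category and strand. The treatment of reads that match several places and the versions of these tools are not given in the sources used here. All 25745 rows hold at least 5 reads over the 4 libraries. The authors also deposited a mean normalized signal, a log2 fold change, and p-values with adjusted p-values of their DESeq2 comparison, and these 4 columns were not used.

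Groups and replicates were taken from the sample labels, and replicates differed by more than counting noise over ncRNA rows (chi-square per degree of freedom 2.74 for Nef-sp +/- and 5.98 for Nef-sp -/-). Of the pairs across genotypes, those with crossed numbers were computed. Replicate 1 of Nef-sp +/- with replicate 2 of Nef-sp -/- gave 3.08, and the other crossed pair gave 2.23. A few rows can carry such a sum, and the part of each row was not tested. TMM-normalized counts entered the quasi-likelihood test of edgeR 4.0.16 (R 4.3.3), in 1 fit over all categories without covariates. Features passed the edgeR expression filter with a minimum count of 10, and p-values were adjusted by the Benjamini-Hochberg method over all 17783 tested features. To normalize, each count was divided by its effective library size, with sizes scaled to a mean of 1. Adjusted p-values come from this model across all features, and read shares were compared by exact two-sided permutation over libraries. Alternatives comprised other scalings, filters, DESeq2 1.42.0, a replicate block and leaving out each library. The procedure was tested on simulated counts. Sequences were read from the NCBIM37 (mm9) genome at GENCODE M1 genes. RefSeq aliases (GRCm38) served for names only.

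Members and lists were chosen with earlier results of these data known. Described by value were any called feature, the 5 smallest p-values without overlap between genotypes, the 3 most abundant features per type (all of smaller types), tested antisense rows, and any feature called in an alternative, with the extremes of each protein list. Marker sums of spermatogonia (16.9 to 22.4 CPM), macrophages (3.53 to 3.98) and epididymis (101 to 119) were also computed, and 0 markers of any list were called.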

Additional observations from a re-analysis of the deposited data

How the results depend on the processing

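The median log2 fold change of the 68 ncRNA sense features was -0.07. It moved to 0.005 when each category was fitted and scaled separately, which centres each category on itself, and ranged from -0.114 to -0.033 when 1 library was left out. No ncRNA feature was called except 1, snmRNA.58.1, without Nef-sp +/- replicate 1, so the count over the left-out libraries was 0 to 1. Over all features, 1 was called in the reported fit, 2 with separate categories, 3 by DESeq2 and between 1 and 85 without 1 library (80 without Nef-sp +/- replicate 1 and 85 without Nef-sp +/- replicate 2). In fits without 1 library, the lone library of its genotype was assumed to vary like the others. Nef-sp exon sense reads were called in all 12 alternatives, between -2.11 and -1.85.

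Without RNase_MRP_RNA.2.1, the differences in share (Nef-sp -/- minus Nef-sp +/-, percentage points) were -0.362 for named snoRNAs, 2.1 for snmRNAs, -0.474 for RNase MRP RNA and -0.657 for U12.

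Of 360 values of 30 named features under 12 alternatives, 333 kept direction and call and 26 changed sign, all of them uncalled in the reported fit. Separate fitting gave 0.047 for LIT1345.1, 0.043 for antisense LIT3345.1, 0.11 for antisense LIT3348.1, 0.068 for Nesp-as, 0.005 for RNase_MRP_RNA.1.1, 0.011 for snmRNA.34.1, 0.064 for snoRNA.2.1 and 0.004 for z32. Scaling to library size gave -0.006 for RNase_MRP_RNA.2.1 and for snmRNA.6.1. Over the fits without 1 library, values ranged from -0.163 to 0.089 for LIT1345.1, -0.031 to 0.513 for LIT1671.1, -0.328 to 0.028 for antisense LIT3345.1, -0.276 to 0.111 for antisense LIT3348.1, -0.382 to 0.314 for Nesp-as, -0.252 to 0.473 for snmRNA.58.1, -0.225 to 0.029 for snoRNA.116.1, -0.075 to 0.044 for snoRNA.2.1, -0.061 to 0.094 for snoRNA.31.1 and -0.45 to 0.241 for z32. The causes were not tested.

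Deviations of same-numbered libraries were weakly and negatively correlated (-0.153 over all features and -0.152 over the ncRNA features). With so few libraries of each genotype, these values cannot decide whether the numbers mark pairs of libraries. With replicate numbers entered as a block, the median of ncRNA features was -0.08 and 0 were called. Crossing the numbers, an alternative chosen after seeing the data, called 50 of all features and 0 ncRNA features.

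Depth limits the rare RNAs: 63 of 131 sense rows could not be tested, and a count of 0 allows up to 3 reads.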
